A study of Mus musculus with 12 samples.

Results

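The cytosolic ribosomal proteins are the protein components of the small and large subunits of the ribosome. They were taken as every array probe whose symbol begins with Rpl or Rps and a number, or is Rplp0, Rplp1, Rplp2 or Rpsa, leaving out the Rps6k kinases and symbols that contain -ps, which name pseudogenes. The rule found 96 of the 45281 probes, for 65 of the 19057 genes named on the array. Of these genes, 63 are ribosomal proteins or their paralogues. The other 2, Rps19bp1 (a protein that binds Rps19) and Rps23rg1 (a gene derived from a copied Rps23 transcript), entered by their symbols alone.

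Liver mRNA was measured on Illumina Mouse-6 V2 BeadChips in mice of a mixed strain background that the labels call insulin-deficient, with leptin or phosphate-buffered saline (PBS) given into a cerebral ventricle (icv). The leptin group (6 arrays) received icv leptin at 25 ng in 0.11 µL per hour, and its livers were taken on day 10. The PBS group (6 arrays) received icv PBS, which the sample titles call placebo, with no volume or day recorded for it here. Both groups carried the insulin deficiency, and how it was brought about is not stated in the sources used here. The labels number the arrays 1 to 6 within each group and name no mouse for any array. The p-values therefore reflect differences among arrays, some of which may be technical. Between 13159 and 14431 probes were detected per array, and the number of arrays limits the precision.

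Most of these proteins are present once in each ribosome, and cells adjust their supply largely through translation of existing mRNA. The mRNAs belong to the 5′ terminal oligopyrimidine (TOP) class, which begins with a C followed by a run of pyrimidines and whose translation is controlled by the nutrient- and insulin-responsive kinase mTORC1 through the RNA-binding protein Larp1. In liver, an organ that exports large amounts of protein, ribosomal protein mRNAs are among the abundant transcripts. An array measures the mRNA and not its translation.

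Sequences around the annotated starts show where single members hold pyrimidine runs, although an annotated start need not be the base at which the mRNA begins. RefSeq windows around annotated gene starts (build GRCm38.p6) matched 52 of the 63 ribosomal protein genes and paralogues, in 62 windows. The stretches here run 5′ to 3′ from 20 bases before the start to 20 bases from it on, and capitals mark the longest run of C and T that begins with C. Rpl27a, Rpl13a, Rpl28 and Rps12 are shown because they have the longest runs among the members that rose. In the other members that rose and have a window, the longest run was from 3 (Rpl26) to 8 bases (Rpl39). Rpl36a, which also rose, stands beside its paralogue Rpl36al, which was not called, and Rps2 and Rplp0 were not called either. The uncalled genes shown were not chosen by run length. Runs of at least 8 bases were in 17 of 35 uncalled members and 5 of 11 that rose, among those with a window.
Rpl27a: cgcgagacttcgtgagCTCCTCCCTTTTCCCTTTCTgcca
Rpl13a: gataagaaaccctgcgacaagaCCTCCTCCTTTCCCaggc
Rpl28: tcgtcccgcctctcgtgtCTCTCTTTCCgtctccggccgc
Rps12: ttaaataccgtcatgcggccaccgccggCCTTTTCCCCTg
Rpl36a: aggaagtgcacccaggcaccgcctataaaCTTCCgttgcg
Rpl36al: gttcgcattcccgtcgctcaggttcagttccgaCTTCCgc
Rps2: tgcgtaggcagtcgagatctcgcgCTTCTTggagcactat
Rplp0: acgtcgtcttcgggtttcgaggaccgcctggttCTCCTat

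These windows lie at chr7:109519175-109519214 on the plus strand for Rpl27a, chr7:45128726-45128765 on the minus strand for Rpl13a, chr7:4792945-4792984 on the plus strand for Rpl28 and chr10:23787190-23787229 on the minus strand for Rps12. The Rpl36a window is chrX:134585634-134585673 on the plus strand, and that of Rpl36al is chr12:69184048-69184087 on the minus strand. The Rps2 window is chr17:24720043-24720082 and the Rplp0 window chr5:115559447-115559486, both on the plus strand. The run was 20 bases long in Rpl27a, 14 in Rpl13a, 11 in Rps12 and 10 in Rpl28. Counting the annotated start as base 1, with no base 0, the run began at -4 in Rpl27a, at -2 in Rpl28, at 3 in Rpl13a, at 5 in Rps2, at 9 in Rps12, at 10 in Rpl36a and at 14 in Rpl36al and Rplp0. In Rpl27a and Rpl28 it therefore spanned the annotated start, and in the other 6 it lay downstream of it. In Rpl36a and Rpl36al it was 5 bases, the same length in the member that rose and in the paralogue that was not called.

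A C followed by further C or T letters to a run of at least 8, starting within 20 bases of the annotated start on the sense strand, was found in 24 of the 52 genes (46.2%), against 16.4% of all 27025 genes with a window. The letters CCGGAA on either strand, the core that ETS-family transcription factors such as GABPA bind, were in the 300-base windows (250 bases before the start and 50 from it on) of 29 of the 52 genes (55.8%), against 16.7% of all genes. Read on the other strand this motif is TTCCGG, whose pyrimidine part can overlap a run. TATAAA was found in 6 of the 52 genes (11.5%), against 15.7% of all genes, and AAGATGGC, the core of the YY1 motif, in 4 (7.69%), against 3.19%. Among members with a window, the pyrimidine run was present in 5 of the 11 that rose (45.5%) and in 17 of the 35 that were tested and not called (48.6%). CCGGAA was present in 4 of the 11 that rose (36.4%) and in 21 of the 35 not called (60.0%). These matches describe letters in a window and were not compared between the called and uncalled members by a test.

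Of the 65 member genes, 56 had a probe detected often enough to be tested, which required a detection p-value below 0.01 on at least 3 of the 12 arrays. In 54 of the 56 the representing probe was detected on all 12 arrays. The exceptions were the paralogues Rpl22l1 (detected on 5 leptin and 3 PBS arrays) and Rpl3l (2 leptin and 5 PBS arrays). The 9 genes not tested were Rpl14, Rpl17, Rpl39l, Rpl6, Rps15a, Rps20, Rps23, Rps23rg1 and Rpsa, whose mean signals of 108 to 127 lay near the median signal of all probes, 118.9. Rpsa, the laminin receptor and a small-subunit protein, was not detected on any array by either of its probes, so nothing can be said of its mRNA. Rpl5 and Rpl11, which bind Mdm2 when ribosome assembly is disturbed, and Rps27, Rps27a and Rpl40 are not analysed here.

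Ribosomal protein mRNAs were shifted to higher values in leptin livers by a small amount. Of the 56 tested genes, 15 rose (26.8%) and 0 fell at a limma adjusted p under 0.05, where 8.56% of all 8819 tested genes rose and 8.67% fell. The median difference of the 56 was 0.28 on the log2 scale, a fold of 1.21, against 0.0039 for all tested genes. The differences ran from -0.21 (Rpl3l) to 0.83 (Rpl29), and 48 of the 56 were above 0 (85.7%, against 50.5% of all tested genes). The members moved together on single arrays, so the 56 genes are not separate observations. Their median deviation from the PBS mean ran from 0.02 to 0.46 on leptin arrays and from -0.27 to 0.28 on PBS arrays, so the groups overlapped. At an unadjusted p under 0.05, 26 members were higher (16.1% of all tested genes were) and 0 lower (16% of all), and by the p-values of the authors' deposited table, after adjustment, 10 were higher and 0 lower, where 6.24% of all tested genes were higher and 486 of the 8819 lower. In whole liver, a difference in the amount of mRNA per cell and one in the mix of cells cannot be told apart.

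**Figure D1:**
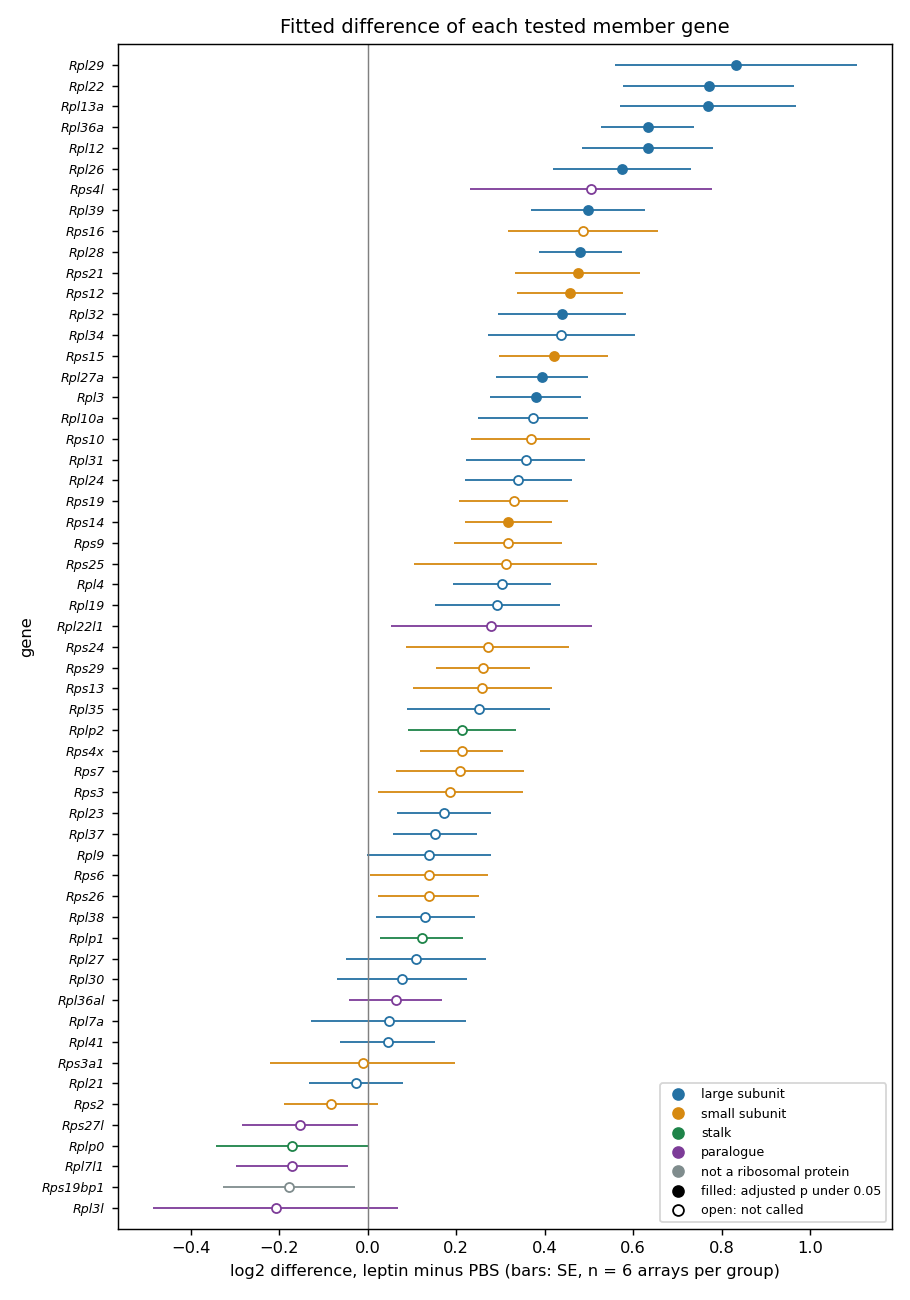
Fitted log2 difference, leptin minus PBS, with its standard error (n = 6 arrays per group) for each of the 56 tested member genes, sorted by size and coloured by class. Filled points passed an adjusted p of 0.05. All 15 filled points lie to the right of 0, and 8 open points lie to the left.

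Large-subunit proteins made up most of the calls. Stalk genes, which belong to the large subunit, and paralogues were counted apart. Of the other 27 tested large-subunit genes, 11 rose (40.7%) with a median log2 difference of 0.36 over the 27. Of 19 small-subunit genes 4 rose (21.1%) with a median of 0.27. These shares were not tested against each other. The 3 proteins of the stalk, the arm of the large subunit that recruits translation factors, had a median of 0.12 and the 6 paralogues one of -0.04. No stalk gene and no paralogue passed, at the adjusted or at the unadjusted threshold of 0.05.

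In 5 members every leptin array lay above every PBS array, which held for 3.15% of all tested genes, and in 0 members did every leptin array lie below every PBS array, which held for 4.13%. Rpl36a, a protein near the exit site for transfer RNA on the large subunit, had a lowest, median and highest deposited signal of 3098, 3721 and 4103 intensity units in leptin livers, against 2162, 2415 and 2695 in PBS livers. The lowest leptin array stood clear of the highest PBS array. Its log2 difference was 0.63 ± 0.11 (SE, adjusted p = 0.00158), a fold of 1.55. Rpl28, a large-subunit surface protein, had signals of 7865, 8344 and 9671 in leptin livers, against 5815, 6156 and 6515 in PBS livers. Its PBS arrays were the tightest among these members, and the log2 difference was 0.48 ± 0.09 (adjusted p = 0.00397).

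Rpl27a had signals of 15806, 16621 and 18673 in leptin livers, against 11389, 13174 and 14666 in PBS livers, a log2 difference of 0.39 ± 0.10 (adjusted p = 0.0191). Rpl3, whose central extension reaches towards the peptidyl transferase centre, had 11134, 12212 and 12648 in leptin livers, against 7778, 9385 and 10961 in PBS livers (log2 difference 0.38 ± 0.10, adjusted p = 0.0216). The leptin arrays of Rpl3 were the more tightly grouped, and the highest PBS array came close to the lowest leptin array. Rps14, the small-subunit protein whose loss causes the anaemia of the human 5q- syndrome, had 18143, 20432 and 22241 in leptin livers, against 14539, 16462 and 18045 in PBS livers. Only a narrow gap parted its groups, at a log2 difference of 0.32 ± 0.10 (adjusted p = 0.0376).

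**Figure D2:**
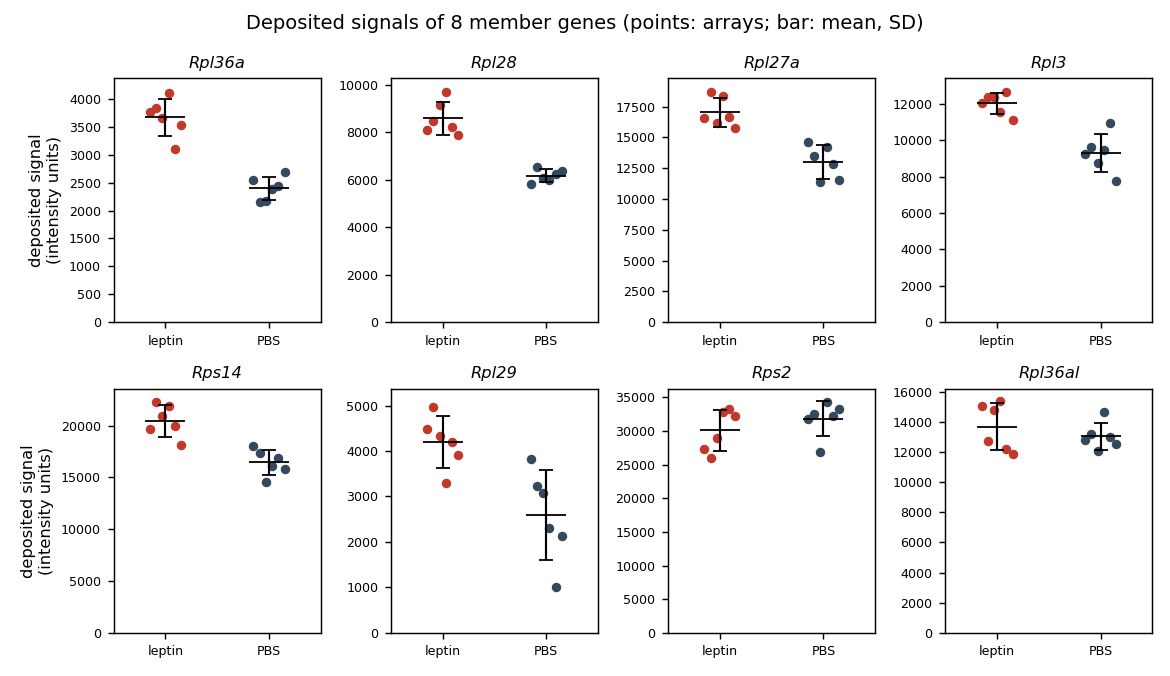
Deposited signals (intensity units, axis from 0) of 8 member genes on each array, with the leptin arrays on the left of each panel and the PBS arrays on the right, and bars giving the mean and SD of n = 6 arrays. In Rpl36a, Rpl28, Rpl27a, Rpl3 and Rps14 the groups do not overlap, and in Rpl29, Rps2 and Rpl36al they do.

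The 3 greatest differences had wider spreads and overlapping groups. Rpl29, a heparin-binding protein of the large subunit, had signals of 3292, 4266 and 4959 in leptin livers, against 1005, 2695 and 3824 in PBS livers. A single PBS array was far below the rest of its group in signal, and the log2 difference was 0.83 ± 0.27 (adjusted p = 0.0496). Rpl22, an RNA-binding protein that mice can live without, had 612.6, 915.7 and 1097 in leptin livers, against 409.9, 567.9 and 710.5 in PBS livers (log2 difference 0.77 ± 0.19, adjusted p = 0.0153). Rpl13a, which in human myeloid cells leaves the ribosome to silence inflammatory mRNAs and which is often used as a reference gene, had 700.8, 1107 and 1329 in leptin livers, against 495.6, 638.6 and 835.7 in PBS livers. All 6 leptin arrays of Rpl13a exceeded the PBS median although the ranges crossed, and its log2 difference was 0.77 ± 0.20 (adjusted p = 0.0181).

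A further 4 large-subunit genes rose with overlapping groups. Rpl12, at the base of the stalk, had 6858, 9170 and 10324 intensity units in leptin livers, against 4419, 5828 and 7191 in PBS livers (log2 difference 0.63 ± 0.15, adjusted p = 0.0107). Rpl26, which in human cells also binds p53 mRNA, had 5387, 7237 and 9554 in leptin livers, against 4061, 4966 and 6026 in PBS livers (0.57 ± 0.16, adjusted p = 0.0219). Rpl39, which lines the tunnel through which the new peptide leaves, had 8679, 10089 and 12003 in leptin livers, against 5827, 7187 and 9092 in PBS livers (0.50 ± 0.13, adjusted p = 0.0181). In these genes the lowest leptin array fell inside the PBS range and the median leptin array above it. Rpl32 had 7539, 10029 and 11909.7 in leptin livers, against 5529.7, 7576 and 8764 in PBS livers, and passed narrowly (0.44 ± 0.14, adjusted p = 0.0492).

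Among small-subunit genes, Rps21 had 9833, 13136 and 15178 intensity units in leptin livers, against 6884, 9595 and 10708 in PBS livers (log2 difference 0.47 ± 0.14, adjusted p = 0.0328). Rps12 had 17083, 22256 and 25244 in leptin livers, against 13274, 15751 and 18299 in PBS livers (0.46 ± 0.12, adjusted p = 0.0191). Rps15, in the head of the small subunit, had 3262, 4059.5 and 5138 in leptin livers, against 2674, 3088 and 3587 in PBS livers (0.42 ± 0.12, adjusted p = 0.0310). All 3 genes had overlapping groups with every leptin array above the PBS median. The 4 greatest differences that did not pass were those of Rps4l (0.50 ± 0.27, adjusted p = 0.218), Rps16 (0.49 ± 0.17, 0.0612), Rpl34 (0.44 ± 0.17, 0.0828) and Rpl10a (0.37 ± 0.12, 0.0505).

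The 5 members with the brightest probes did not pass, with differences from -0.08 (Rps2) to 0.26 (Rps29). Rpl41, a peptide of very few residues, had signals of 27580.3, 35584 and 36534 in leptin livers, against 29205, 32951 and 36939.9 in PBS livers (log2 difference 0.05 ± 0.11, adjusted p = 0.811). Rps2, near the entry of the mRNA channel, had 25965, 30594 and 33188 in leptin livers, against 26879, 32339 and 34338 in PBS livers (-0.08 ± 0.11, adjusted p = 0.624), and its second probe gave -0.28 ± 0.09 (adjusted p = 0.0510). Rplp1 (0.12 ± 0.09), Rps29 (0.26 ± 0.11) and Rpl38 (0.13 ± 0.11), a protein needed for normal patterning of the mouse skeleton, were not called either. In all 5 the leptin and PBS ranges overlapped.

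Bead array signals saturate at the bright end, so members were also read by brightness. The highest member signal was 36939.9 intensity units, and 11 member probes lay above the 99th percentile of mean signal of kept probes (16995). The array maximum of 51374 was the same on all 12 arrays, whose deposited values had been equalised. It need not be the level at which signals saturate, so member signals below it do not show that saturation was absent. Of 21 members with a mean signal over 10000, 5 rose (23.8%, median log2 difference 0.25), against 5.06% and a median of -0.06 for other genes that bright. Of 16 members between 5000 and 10000, 5 rose with a median of 0.36, against 11.1% of other genes and a median of -0.07. Of 7 members between 1000 and 5000, 3 rose with a median of 0.34, against 7.89% of other genes and a median of -0.03. Of 9 members between 200 and 1000, 2 rose with a median of 0.08, against 8.27% of other genes and a median of -0.0064. The 3 members under 200 were not called and had a median of -0.03, where 9% of other genes rose with a median of 0.04. Whether the signal is compressed at the bright end was not tested.

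**Figure D3:**
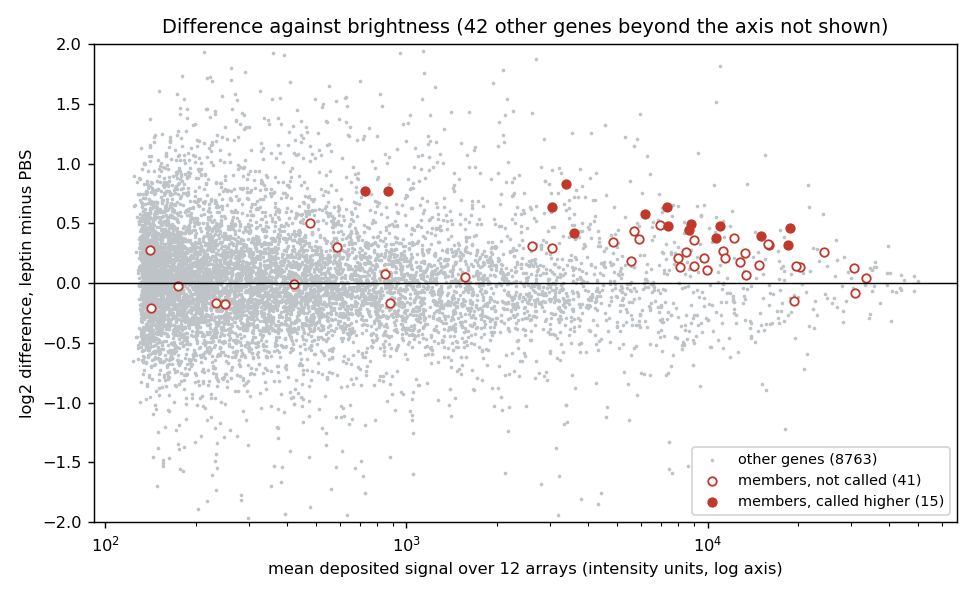
Log2 difference, leptin minus PBS, against the mean deposited signal over the 12 arrays (log axis) for all 8819 tested genes, with the 15 called members filled, the 41 uncalled members open and the 8763 other genes in grey. The 42 other genes with a difference beyond 2 in either direction are not drawn. Most members lie above 5000 intensity units, and the filled points there sit above the grey cloud's centre.

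The stalk proteins and the S6 kinase substrate of the small subunit did not pass. Rps6, the small-subunit protein that S6 kinase phosphorylates downstream of mTORC1, had signals of 7157, 9559 and 10988 in leptin livers, against 6840, 8510.5 and 10779 in PBS livers (log2 difference 0.14 ± 0.13, adjusted p = 0.499). Rplp2 had 7098, 8700.0 and 9471 in leptin livers, against 5802, 7415 and 9128 in PBS livers (0.21 ± 0.12, adjusted p = 0.243). Rplp0, the anchor of the stalk and a common reference gene, had only 192.0, 224.2 and 270.3 in leptin livers, against 203.6, 242.5 and 290.9 in PBS livers (-0.17 ± 0.17, adjusted p = 0.526). A p-value above the threshold does not show that these genes were equal in the groups.

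Of 4 paralogue pairs compared, 1 differed between the groups. The log2 ratio of a gene to its paralogue on the same array was compared by an exact two-sided permutation test, with p-values adjusted over the 4 pairs. The ratio of Rpl36a to Rpl36al was higher in leptin livers by 0.57 ± 0.08 (SE, exact p = 0.00216, adjusted 0.00866), where 0.00216 is the smallest p that 924 regroupings can give. Rpl36al itself had 11909.7, 13785 and 15389 intensity units in leptin livers, against 12093, 12895 and 14666 in PBS livers (log2 difference 0.06 ± 0.11, adjusted p = 0.715). The other pairs did not pass, with differences of 0.59 ± 0.32 for Rpl3 to the muscle paralogue Rpl3l (exact p = 0.0866, adjusted 0.173), 0.49 ± 0.38 for Rpl22 to Rpl22l1 (exact p = 0.223, adjusted 0.297) and -0.29 ± 0.32 for Rps4x to Rps4l (exact p = 0.381, adjusted 0.381). The probes of Rpl3l and Rpl22l1 were close to background. Rps27l, a paralogue known as a p53 target, had a log2 difference of -0.15 ± 0.13, and Rpl7l1, a relative of Rpl7, had -0.17 ± 0.13. Rps19bp1 had -0.18 ± 0.15.

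Ribosomal protein genes have many processed pseudogenes and near-identical copies, so a probe's signal may include RNA of another copy. Where a gene had several kept probes these could be set beside each other. Of the 76 kept member probes, 21 were higher and 0 lower, with 8.31% of all kept probes higher and 9.76% lower. Of the member genes, 16 had more than 1 kept probe, and in 0 of them were probes called in opposite directions. Both probes of Rps12 (0.46 and 0.53) and all 3 of Rpl27a (0.39, 0.51 and 0.62) were called. In 5 genes the probes disagreed on the call.

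For Rpl29 the second probe differed by 1.30 ± 0.63 (adjusted p = 0.172), more than the called probe but with a larger error. For Rpl28 the second probe was detected on 3 leptin and 0 PBS arrays, so no size is given, and it was not called (adjusted p = 0.135). Rps24, Rps9 and Rpl23 were not called on their brightest probe but were on another. In Rps24 the brightest probe gave 0.27 ± 0.18 (adjusted p = 0.327) and a dimmer one 0.71 ± 0.21 (0.0338), and in Rps9 the values were 0.32 ± 0.12 (0.0867) and 0.54 ± 0.14 (0.0177). In Rpl23 the brightest probe gave 0.17 ± 0.11 (0.278), and the second, on which the groups did not overlap, 0.35 ± 0.10 (0.0282).

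The shift was not even between arrays. Taking each gene's deviation from its mean over the PBS arrays, the median over the 56 genes was 0.38, 0.37, 0.19, 0.46, 0.23 and 0.02 on leptin arrays 1 to 6, against 0.28, -0.07, -0.27, 0.06, 0.05 and -0.04 on PBS arrays 1 to 6. Leptin 6 lay at the PBS level and PBS 1 among the leptin arrays, so the groups overlapped. Leptin 4 was highest, with 53 of the 56 genes above their PBS mean, and PBS 3 lowest, with 5 of 56. On the same arrays the median over all tested genes stayed between -0.05 and 0.03, where normalisation to a common distribution holds it near 0. Over the mitochondrial ribosomal proteins the median was 0.04, -0.06, -0.12, -0.05, -0.25 and -0.26 on leptin arrays 1 to 6. On PBS arrays 1 to 6 it was 0.40, -0.21, -0.28, -0.08, 0.16 and -0.04. PBS 1 was thus high and PBS 3 low in both sets, so swings of single arrays were not particular to the members.

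**Figure D4:**
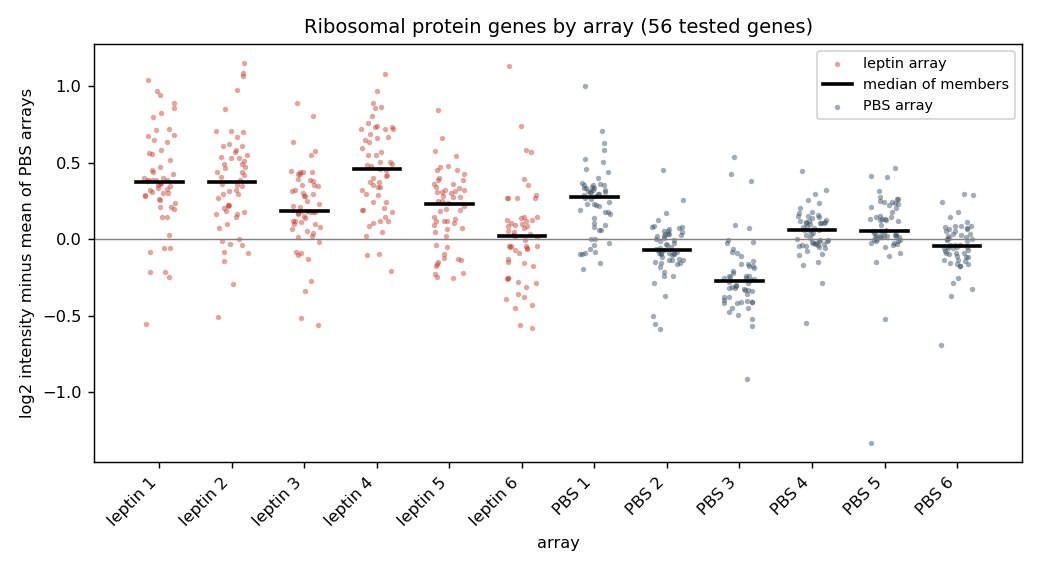
Each tested member gene's log2 intensity minus its mean over the PBS arrays, one column of points per array, leptin arrays on the left and PBS arrays on the right, with the median of the 56 genes as a bar. The bars of leptin 1 to 5 lie between 0.19 and 0.46, that of leptin 6 at 0.02, that of PBS 1 at 0.28 and that of PBS 3 at -0.27.

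Without PBS 3 and leptin 4, 6 members rose (Rpl29, Rpl22, Rpl36a, Rpl12, Rpl28 and Rpl3), 1 fell (Rpl3l, log2 difference -0.63, adjusted p = 0.00873) and the median was 0.17. In this setting 10.7% of the members rose, against 9.29% of all tested genes, so the share of members called was near the background. Leptin 4 and PBS 3 had the highest and lowest medians of the members themselves. Leaving them out therefore lowers the members' difference by construction, and the loss of calls is partly built in. The Rpl3l probe was near background, and leptin 4 had its highest value. With 1 array left out at a time, 10 of the 15 calls held whichever of the 12 arrays it was. Rpl29 was lost without leptin 1, 2, 3, 5 or 6 or PBS 4 or 6 (adjusted p 0.0685 to 0.0935), and Rps21 without leptin 1, 2, 3 or 4 or PBS 2, 3 or 6 (0.0544 to 0.0663). Rpl32 was lost without any 1 array other than leptin 6 or PBS 1 (0.0641 to 0.0966). Rps15 was lost without leptin 1, 2, 4 or 5 or PBS 2, 3, 5 or 6 (0.0522 to 0.0633), and Rps14 without any 1 array other than leptin 6 or PBS 1 or 2 (0.0545 to 0.0791). Rpl36a was the only member called in all 12 of these fits and in the 18 other settings run.

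Lists of translation factors had medians nearer to 0. Of 12 elongation factors 1 rose (8.33%, against 8.56% of all tested genes), with a list median of 0.07. It was Eef1b2, a nucleotide exchange factor of the elongation factor eEF1A (log2 difference 0.52 ± 0.15, adjusted p = 0.0329), with 1 of its 3 probes called. Of 26 initiation factors 1 rose (3.85%, against 8.56% of all tested genes) and 3 fell (11.5%, against 8.67%), with a median of -0.08. Eif6, which keeps free large subunits from joining small ones, fell to normalised log2 intensities of 10.61, 10.74 and 10.91 (lowest, median, highest) in leptin livers, against 11.07, 11.31 and 11.49 in PBS livers. The groups of Eif6 did not overlap (log2 difference -0.58 ± 0.11, adjusted p = 0.00277), and its second, dim probe was not called. Eif4g2 (-0.43 ± 0.12) and Eif2b5 (-0.35 ± 0.10), a subunit of the exchange factor for eIF2, fell as well, while Eif3f rose (0.40 ± 0.11). A second probe of Eif4g2 was not called (-0.32 ± 0.14, adjusted p = 0.135), and a dim one was called lower (adjusted p = 0.00239). With 1 array left out, the call of Eef1b2 was lost without leptin 1, 2 or 4 or PBS 2, 3, 4, 5 or 6 (adjusted p 0.0522 to 0.0680), Eif4g2 without leptin 2 (0.0544) or PBS 4 (0.0542), Eif2b5 without leptin 1 or 5 or PBS 4 or 6 (0.0514 to 0.0588), and Eif3f without PBS 5 (0.0528).

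The other mRNAs known to carry a TOP start came nearer to the ribosomal proteins, with a median of 0.23 over 15 genes. Of these 3 rose (20%, against 8.56% of all tested genes) and 1 fell (6.67%, against 8.67%). Among the 3, Eef1b2 and Eif3f are counted above as factors. Hnrnpa1, an RNA-binding splicing factor, rose by 0.62 ± 0.15 (adjusted p = 0.0119) on 1 of 3 probes. Tpt1, a classical TOP mRNA, fell by 0.80 ± 0.14 (log2 difference -0.80, adjusted p = 0.0020) on a probe near background that was detected on 5 leptin and 6 PBS arrays. Pabpc1 (0.39 ± 0.15, adjusted p = 0.0784), Naca (0.36 ± 0.17, 0.157) and Npm1 (0.28 ± 0.11, 0.0933) were not called.

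Of 49 genes of ribosome biogenesis and the nucleolus 1 rose (2.04%, against 8.56% of all tested genes) and 4 fell (8.16%, against 8.67%), with a median of 0.0048. Rcl1, which takes part in cutting the ribosomal RNA precursor, had normalised log2 intensities of 13.04, 13.71 and 14.34 in leptin livers, against 12.47, 12.89 and 13.07 in PBS livers (log2 difference 0.82 ± 0.20, adjusted p = 0.0118). Its ranges met only at the edge, and 2 of its 3 probes were called. The assembly factors Tsr1 (-0.70 ± 0.13) and Gnl2 (-0.62 ± 0.11) fell with no overlap of the groups, as did Rexo4 (-0.40 ± 0.10). A second, dimmer probe of Gnl2 was not called (-0.31 ± 0.13, adjusted p = 0.116). Ddx21 fell on its brighter probe (-0.43 ± 0.13), while the other gave 0.41 ± 0.17 (adjusted p = 0.113). Of 28 genes of RNA polymerases I and III 2 rose (7.14%, against 8.56% of all tested genes), the shared subunits Polr1c (0.64 ± 0.13) and Polr1d (0.51 ± 0.14). Another probe of Polr1d, detected on 0 leptin and 5 PBS arrays, was called lower (adjusted p = 0.00161), a direction partly built in by the detection filter. The call of Ddx21 was lost without leptin 1, 3, 4 or 5 or PBS 2, 3 or 4 (adjusted p 0.0569 to 0.0721), and that of Polr1d without leptin 5 (0.0571) or PBS 4 (0.0558).

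In the mTORC1 and translational control list, 4 of 34 genes rose (11.8%, against 8.56% of all tested genes) and 2 fell (5.88%, against 8.67%). The list median was 0.02, and its calls were near the background shares. Myc, a transcription factor that drives ribosome production, was detected on 6 leptin and 0 PBS arrays, with normalised log2 intensities of 5.76, 6.05 and 6.98 in leptin livers, against 4.46, 4.63 and 5.05 in PBS livers. Since no PBS array was above background the change is a bound, at least 1.90-fold higher in leptin livers (adjusted p = 0.000553). Eif4ebp1, a repressor of cap-dependent translation that mTORC1 inactivates, rose by 0.47 ± 0.13 (adjusted p = 0.0271). Ddit4l, an inhibitor of mTORC1 signalling, rose by 1.19 ± 0.18 (adjusted p = 0.000841, detected on 2 PBS arrays). Myc and Ddit4l passed the detection filter only through leptin arrays, so their rises are partly built in. Tbc1d7, a subunit of the TSC complex that restrains mTORC1, fell (log2 difference -0.69 ± 0.13, adjusted p = 0.00328). Castor1, an arginine sensor of mTORC1, rose (0.44 ± 0.14) and Mlst8, a subunit of it, fell (-0.46 ± 0.12). The call of Eif4ebp1 was lost without leptin 1 or 5 or PBS 5 or 6 (adjusted p 0.0559 to 0.0610). Mtor (0.23 ± 0.18, adjusted p = 0.391) and Larp1 (-0.08 ± 0.16, 0.752) were not called.

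The ribosomal proteins of the mitochondrion, which translate a separate set of mRNAs, had a median of -0.10 over 71 tested genes, of which Mrpl57 rose and Mrps27 (-0.80 ± 0.18) and Mrpl34 (-0.55 ± 0.17) fell. The shares called were 1.41% higher and 2.82% lower, against 8.56% and 8.67% of all tested genes. The Mrpl57 probe was above background on 5 leptin and 0 PBS arrays and at least 1.11-fold higher in leptin livers (adjusted p = 0.0226). It passed the detection filter only through leptin arrays, so its rise is partly built in. Subunits of the constitutive proteasome, another large complex of fixed composition, had a median of -0.18 over 30 genes. They were taken by symbol, with Psma8 and Psmd9 among them, so not every gene need be a constitutive subunit. Of these 10% fell, against 8.67% of all tested genes, and 0% rose. Those that fell were Psmd6 (-0.71 ± 0.15, detected on 1 leptin and 6 PBS arrays), Psmc3 (-0.38 ± 0.10) and Psmc5 (-0.37 ± 0.10). Psmd6 passed the detection filter only through PBS arrays, so its fall is partly built in and its size is uncertain. In both lists few genes had differences above 0 (31.0% and 6.67%), against 85.7% of the cytosolic ribosomal proteins. These shares describe the lists and were not tested against each other.

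**Figure D5:**
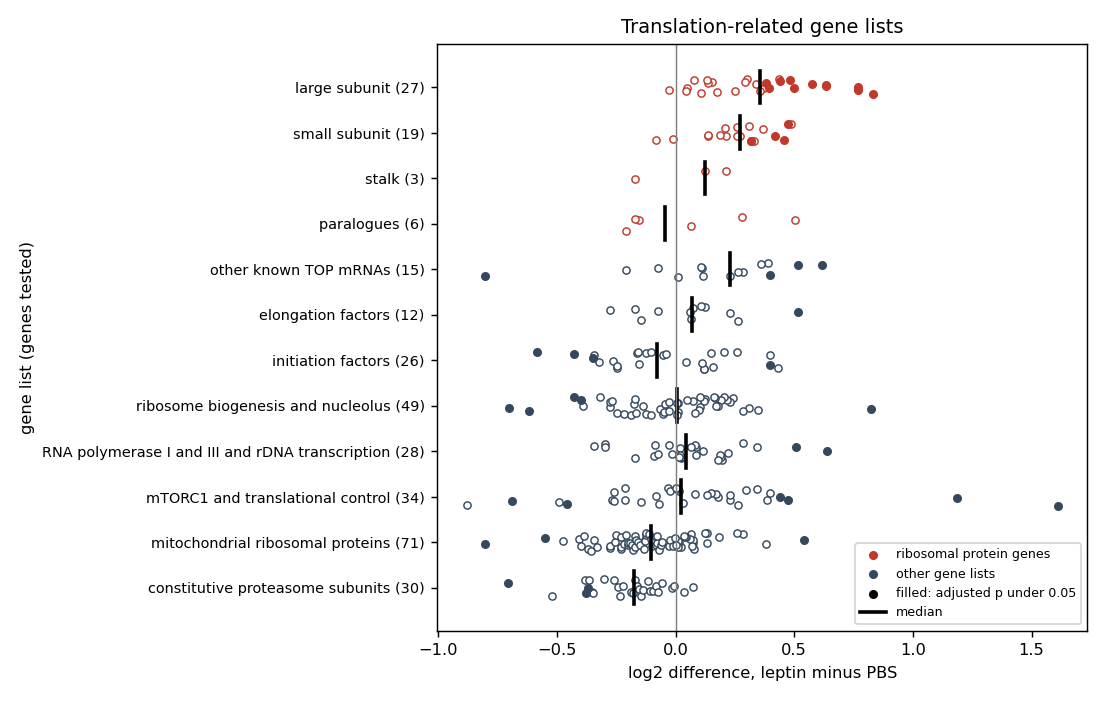
Log2 difference, leptin minus PBS, of each tested gene in 4 classes of ribosomal protein genes (red) and 8 other lists (blue), with filled points for genes past an adjusted p of 0.05, bars for the medians and the number of genes tested in brackets. The bars of the large and small subunit stand at 0.36 and 0.27, and that of the mitochondrial ribosomal proteins at -0.10.

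Some markers of other liver cells were also higher in leptin livers, where 8.56% of all tested genes rose and 8.67% fell. Of 9 tested Kupffer cell and macrophage markers 4 rose (Clec4f by 0.97 ± 0.18, Timd4, C1qa and C1qc), and their summed normalised intensity had a lowest, median and highest of 8881, 13159.8 and 24070.2 in leptin livers, against 5947, 7006 and 12909 in PBS livers. The 4 tested lymphocyte markers, of 9 on the array, rose (Cd3d, Cd3e, Cd3g and Cd79b), although their probes were near background. Cd3e was detected on 5 leptin and 0 PBS arrays, Cd3g on 4 and 0, Cd79b on 6 and 1, and Cd3d on 6 and 3. Cd3e, Cd3g and Cd79b passed the detection filter only through leptin arrays, so a rise of the tested markers is partly built in. The summed intensity was 161, 214 and 408 in leptin livers, against 108, 117 and 127 in PBS livers. With so few PBS detections it gives a direction and no size. Ms4a1, Il7r and Ptprc were detected on no array. Of 9 sinusoidal endothelial markers 3 rose (7517, 9043 and 10480 in leptin livers, against 5044, 8113 and 10087 in PBS livers), and of 7 stellate cell and matrix markers 1 rose (5884, 9559.8 and 10643 in leptin livers, against 4288, 6786 and 8379 in PBS livers). Of 9 hepatocyte markers 1 rose and 1 fell, and their sum ran from 203646 to 217736 in leptin livers and from 195404 to 221772 in PBS livers. Cell cycle genes (median log2 difference 0.42 over 6), neutrophil markers (0.43 over 6) and handling and immediate early genes (0.40 over 7) had differences mostly above 0, of which none passed, with 2, 0 and 2 higher at an unadjusted p under 0.05. The summed intensities were 451, 657 and 941 in leptin livers, against 389, 505 and 614 in PBS livers, for the cell cycle genes, and 4808, 6994 and 10122 in leptin livers, against 4247, 4757 and 7375 in PBS livers, for the handling genes. Those of the neutrophil markers were 250, 1046 and 7705 in leptin livers, against 231, 581 and 7083 in PBS livers. Cholangiocyte markers had a median of -0.08 over 3 genes that did not pass (sums of 143, 205 and 307 in leptin livers, against 153, 258 and 818 in PBS livers). Of 4 red blood cell markers 0 were called (median 0.12). Of 3 tested pancreatic acinar markers 1 rose and 1 fell (median 0.28), and 6 of the 9 on the array were detected on no array. The markers Cd5l, Kdr, Col1a2, Pdgfrb, Krt19, Epcam, Ccna2 and Ier2 of these lists were detected on no array. The part of these markers in the ribosomal protein values was not tested.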

How the data were processed

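Total RNA of mouse liver, extracted with Trizol and RNeasy columns, was hybridised as biotinylated cRNA, per the labels' protocols. The authors deposited, per the file headers, an intensity (AVG_Signal) and a detection p-value for each probe on each array. Their sorted values were the same on all 12 arrays, which shows that the deposited intensity values were equalised beforehand, and no background had been subtracted (lowest 95.9). The sources used here do not name the software. The log2 values of the authors' series matrix are the log2 of these signals, and the authors' deposited Cyber-T table gives an unadjusted p-value and a log2 difference per probe.

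Symbols came from GEO's platform annotation (34885 probes with 1 symbol, 18 with several, 10378 with none), and 34807 were found by identifier in RefSeq (GRCm38.p6). Signals were background-corrected, quantile normalised and logged with limma's neqc (offset 16), so folds of dim genes are understated. Probes with a detection p-value below 0.01 on at least 3 of 12 arrays were kept (15062), and a gene was represented by its brightest kept probe (8819 genes). Groups were compared with limma 3.58.1 in R 4.3.3 (lmFit and eBayes, two-sided, Benjamini-Hochberg over the kept probes, adjusted p under 0.05). The fit was tested on simulated data. For a probe above background in only 1 group the fold is a lower limit: the dim group enters with the lowest detected signal of each array, or with the probe's own value if that is higher. RefSeq start-site windows supplied the sequences, and figures were drawn with matplotlib 3.10.9. No slide is named in the columns used here, so batches were not tested.

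The members, gene lists and tests were chosen with earlier results of these data known. Named members are the 12 greatest changes past the threshold, those whose probes differ in call, the 5 brightest and 5 dimmest, stalk genes, paralogues and some others fixed by name, and up to 4 called genes of each pathway list. The other genes named (among them Rpl27a, Rps14, Rps16, Rpl34, Rpl10a, Rpl36al, Rexo4, Castor1, Mlst8, Mtor, Larp1 and the mitochondrial, proteasome and marker genes) were chosen after their values were seen. Alternatives changed the background correction, the normalisation, the detection filter, the choice of probe, the variance model and the arrays included, used the authors' log2 values or p-values, weighted arrays, blocked on replicate number or required a fold of at least 1.2.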

Additional observations from a re-analysis of the deposited data

Results flagged for a closer look

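In 4 of the 66 groups checked (33 named members in each group of 6 arrays), a single array stood apart from the other 5 by a share of the group's range above Dixon's critical value. The shares were 0.677 for Rps29, 0.686 for Rpl41, 0.736 for Rpl3l and 0.686 for Rps2. Chance gives about 1 such group in 20. Values are normalised log2 intensities. Rps29 was 14.97 on leptin 4, against 14.56 to 14.69 on the other leptin arrays. Rpl41 was 14.75 on leptin 6, against 15.03 to 15.15 on the others. Rpl3l was 6.42 on leptin 4, against 4.90 to 5.30 on the others, near background. Rps2 was 14.71 on PBS 3, against 14.95 to 15.06 on the other PBS arrays.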

How the results depend on the processing

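In every setting run, more tested members rose than fell and the median of the tested members was above 0. With 1 array left out at a time the count that rose ran from 10 to 20, the count that fell from 0 to 0 and the median log2 difference from 0.20 to 0.34. The count that rose was 1 (Rpl36a) when a minimum fold of 1.2 was required, where 171 of all genes rose and 157 fell against 755 and 765 without it. It was 6, with 1 that fell, without PBS 3 and leptin 4, where 819 of all genes rose. The share of members that rose was then near that of all genes, at 1.79% against 1.94% with the minimum fold and 10.7% against 9.29% without the 2 arrays. Those 2 arrays were the extremes of the members' own medians, so a smaller difference without them was built in. In the other settings the count that rose lay between 10 (the authors' p-values) and 20 (the deposited log2 values). Pairing of arrays by equal replicate numbers was not shown, and this check cannot exclude it. The correlations of their deviations for numbers 1 to 6 were 0.45, -0.29, 0.28, 0.06, -0.04 and 0.22, and 2 of the 6 numbers had their best match in their own number. With a replicate block 15 members rose, 14 of them shared, with Rps14 lost (adjusted p = 0.0768) and Rps16 gained.

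Signs turned for small differences that were not called. On the dimmest kept probe Rpl38 was -0.0043 (also with the brightest 1 percent of probes left out), Rps13 -0.06, Rpl21 0.0081 and Rpl7l1 0.10. Rpl21 was 0.024 on the mean of its probes, 0.0093 with array weights and between -0.084 and 0.023 with 1 array left out, turning without PBS replicate 5, and Rpl41 -0.0051 without PBS 3 and leptin 4. Rpl27, Rpl30 and Rpl7a reached -0.05, -0.02 and -0.09 in some setting, and Rps3a1 0.09. Of called genes outside the members, Ddx21 (0.41) and Polr1d (-0.77) turned on their dimmest probe, which for Polr1d was above background on 0 leptin arrays, so that its value gives a direction and no size. The cause was not tested. With the deposited log2 values 6 of the other TOP mRNAs rose (3 on the normalised values), 3 elongation factors rose and 1 fell (1 and 0), and 5 initiation factors fell (3). With those values 7.8% of all 8819 tested genes rose and 786 fell.

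Rpl29 also lost its call with the deposited log2 values (adjusted p = 0.0557), without a filter (0.148) and on the mean of its probes (0.12). Signal near background limits Rpl3l and Rpl22l1, and 9 member genes could not be tested.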
